A study of Mus musculus with 6 samples.

Results

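The 612 regions described here were the top-scored accessible regions of untreated mouse embryonic stem cells (mESCs). They were chosen by the score deposited with each ATAC-seq peak, as all peaks with a score of 900 or more, and made up 612 of the 41014 listed peaks (1.49%). In ATAC-seq a transposase inserts sequencing adapters where DNA is not wrapped in nucleosomes, so that a peak marks a stretch of open chromatin. The series has 6 samples in 3 conditions with 2 replicates each. The untreated condition used the V6.5 line. The other conditions used mESCs whose ZBTB21 carries a degron, sampled after 0 or 6 h of IAA, the auxin that triggers breakdown of the tagged protein. The degron samples were not analysed here. The list of peaks pooled both untreated replicates and gave no values per replicate, so depth and the spread between replicates are unknown, and how well a peak was reproduced could not be measured apart from its score. V6.5 cells were grown on irradiated mouse embryonic fibroblasts with serum and LIF according to the labels, whereas the study's methods list serum, LIF and the inhibitors CHIR99021 and PD0325901 and name no feeders. The treatment text that all labels share describes doxycycline given to degron cells.

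A promoter is the stretch of DNA around a transcription start site (TSS) where RNA polymerase II and its general factors assemble. At many mammalian genes, above all those that all cells use, the promoter lies in a CpG island, a GC-rich stretch in which the dinucleotide CpG has not been lost, and it stays free of nucleosomes just upstream of the TSS. Enhancers and CTCF sites are the other main classes of open chromatin, and they are mostly poorer in CpG.

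Scores in the list ran from 540 to 953 with a median of 696, and the median of the 612 top-scored peaks was 919. Read from its values alone, the score is the scaled irreproducible discovery rate (IDR), which ranks peaks by the agreement of 2 replicates. On that scale 540 stands for an IDR of 0.0501 and 900 for 0.00680. At the threshold itself the values ran on without a gap, with 19 peaks at 900 and 19 at the score just below. The first 5 in the order of the list at 900 lay at the promoters of Efcab11 and Tdp1 (461 bp), Cks2 (718 bp), Capn7 (885 bp), Tef (1148 bp) and Srebf2 (937 bp). The first 5 just below 900 lay at the promoters of Smarcal1 (750 bp), Adipor1 (1018 bp), Arid5b (830 bp), Gfpt2 (883 bp) and Specc1 (903 bp). All 10 were at coding promoters, and their widths overlapped.

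The sequences below are examples of base composition at top-scored promoters and at top-scored regions elsewhere. The first set holds the 120 bases directly before the TSS of the 4 highest-scored promoters whose stretch lies inside the peak and has no annotated exon, read 5′ to 3′ in the direction of the gene (GRCm38, RefSeq). Capitals mark CpG.
Fbrsl1, chr5:110448504-110448623, - strand: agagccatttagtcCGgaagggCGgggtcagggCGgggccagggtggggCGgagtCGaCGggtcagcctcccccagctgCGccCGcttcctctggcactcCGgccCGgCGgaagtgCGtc
Arrb2, chr11:70432365-70432484, + strand: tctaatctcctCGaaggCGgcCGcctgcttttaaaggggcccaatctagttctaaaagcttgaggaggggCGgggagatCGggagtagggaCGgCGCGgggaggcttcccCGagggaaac
Usp1, chr4:98923690-98923809, + strand: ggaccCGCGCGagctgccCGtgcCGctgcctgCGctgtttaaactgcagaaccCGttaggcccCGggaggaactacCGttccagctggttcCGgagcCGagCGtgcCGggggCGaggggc
Sel1l, chr12:91849158-91849277, - strand: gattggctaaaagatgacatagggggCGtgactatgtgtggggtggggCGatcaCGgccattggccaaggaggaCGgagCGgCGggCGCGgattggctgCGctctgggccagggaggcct
The second set holds 120 bases about the midpoint of the 4 highest-scored regions away from promoters, outside 1 chromosome not printed here, whose stretch has no annotated exon, read in the direction of the nearest protein-coding gene, with CpG again in capitals.
Zfhx3, chr8:108722918-108723037, + strand: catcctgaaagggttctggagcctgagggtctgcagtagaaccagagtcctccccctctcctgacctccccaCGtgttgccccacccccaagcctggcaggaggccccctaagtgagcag
Gnai2, chr9:107626974-107627093, - strand: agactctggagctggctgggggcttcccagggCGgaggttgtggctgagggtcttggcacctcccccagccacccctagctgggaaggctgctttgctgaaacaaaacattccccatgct
Klf3, chr5:64864971-64865090, + strand: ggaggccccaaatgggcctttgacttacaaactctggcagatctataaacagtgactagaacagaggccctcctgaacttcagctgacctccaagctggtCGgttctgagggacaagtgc
Pds5a, chr5:65724631-65724750, - strand: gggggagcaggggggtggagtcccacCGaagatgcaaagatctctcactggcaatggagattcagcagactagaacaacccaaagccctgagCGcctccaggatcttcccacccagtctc
The stretches before the TSSs of Fbrsl1, Arrb2, Usp1 and Sel1l held 12, 9, 14 and 9 CpGs. Those near Zfhx3, Gnai2, Klf3 and Pds5a held 1, 1, 1 and 2. In GC content the sets lay closer, at 60.8% to 73.3% in the first and 52.5% to 63.3% in the second. The sets differ in place, before a TSS against about a midpoint. The second also passes over high-scored regions with exons at Gm41011, Fbxo46 and Tsks. Their observed over expected CpG ratios, explained below, were 0.591, 0.739 and 0.502 over the whole peak. The 4 regions printed had ratios from 0.0839 to 0.434, so these examples do not measure the difference.

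Promoters made up most of the top-scored peaks. A RefSeq TSS lay within 1 kb of 539 of the 612 (88.1%, Wilson 95% confidence interval 85.3 to 90.4), whereas 8293 of all listed peaks (20.2%) lay at a promoter. The interval covers counting error only, since peaks of 1 list are not replicates of a condition. With curated transcripts alone the shares were 85.9% of the top-scored and 15.6% of all listed peaks. The promoter share did not climb steadily along the score. It lay between 15.3% and 19.9% in each step of 20 points from 540 to under 800, then went from 22.1% in the step from 800 to 28.6%, 39.5%, 54.2% and 69.8% in the steps from 820, 840, 860 and 880. Among the top-scored peaks it went from 85.1% at 900 to 909 to 93.3% at 950 to 953, the last from 15 peaks.

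**Figure D1:**
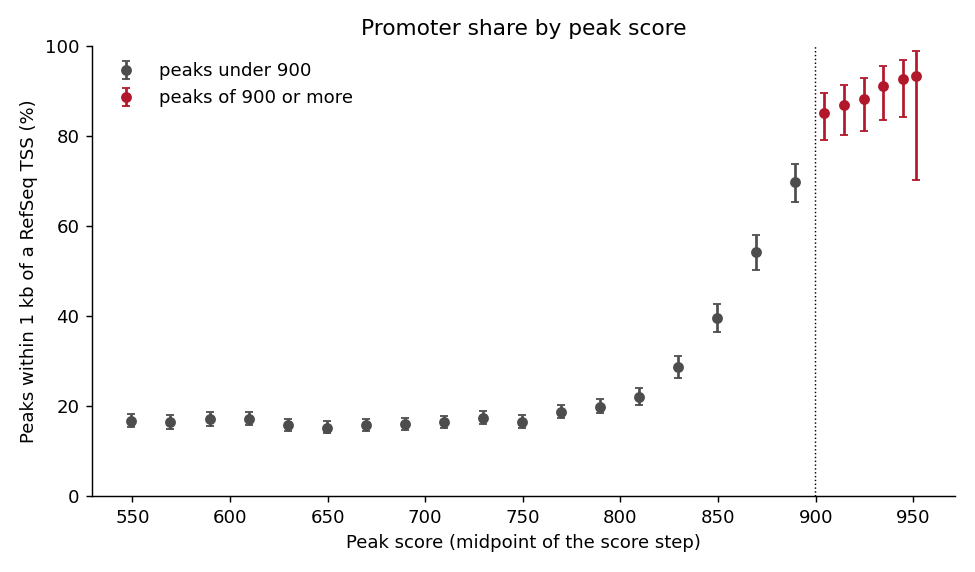
Share of peaks within 1 kb of a RefSeq TSS (%, vertical) in each step of the peak score (horizontal, 20 points wide under 900 and 10 above, the last from 950 to 953), with Wilson 95% intervals as bars. The share stays under 20% below a score of 800 and reaches 85.1% in the first step of the top-scored peaks, shown in red.

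At protein-coding promoters lay 522 of the 539, and the other 17 lay at promoters of noncoding genes alone. Of the 522, 440 marked 1 protein-coding gene, 80 marked 2 and 2 marked 3 or more. The TSS was inside the peak in 525 of the 539. Together the top-scored peaks marked 606 of the 21774 protein-coding genes (2.78%), against 6510 genes (29.9%) with any listed peak at a promoter.

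The highest scores at coding promoters belonged to genes of unlike function. A score of 953 was given to chr5:34659847-34660864, which serves Grk4, a kinase of G protein-coupled receptors, and Nop14, a factor of ribosome biogenesis in the nucleolus. Fbrsl1 also stood at 953, with chr5:110448325-110449255. At 952 lay Arrb2, which encodes β-arrestin 2, at chr11:70432136-70432913, Numb, an inhibitor of Notch signalling, at chr12:83921463-83922375, and Usp1, the deubiquitinase of FANCD2 and PCNA, at chr4:98922915-98924015. These 5 peaks were 1018, 931, 778, 913 and 1101 bp wide, each above the median of all listed peaks.

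Among the other 20 of the 25 highest were genes of protein quality control in the endoplasmic reticulum, Sel1l (951) and Derl3 (947), which both act in the removal of misfolded proteins. Signalling genes were Ephb3 (951), an ephrin receptor, Gna12 (948), a G protein α subunit, and Stk11 (947), the LKB1 kinase. Membrane traffic was represented by Hgs (950), a subunit of the ESCRT-0 complex that shares its peak with Arl16, and by Sacm1l (949), a phosphoinositide phosphatase. RNA biology was represented by Tial1 (950), an RNA-binding protein, Sarnp (949), an mRNA export factor that shares its peak with Ormdl2, and Ints6 (949), a subunit of the Integrator complex. Slc31a1 (948), the copper importer, shared its peak with Fkbp15, and Coa4 (948) encodes an assembly factor of cytochrome c oxidase. The rest were Abcf2 (951), Fnbp4 and Arrdc4 (950 each), Cep97 and Msantd4 (949 each), Lims1 and Zfp78 (948 each) and Ppp1r12b (947). None of the 25 belongs to the pluripotency markers described further on.

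The midpoints of the top-scored peaks sat close to the TSS. At the 522 coding promoters the midpoint lay at a median of -13.5 bp from the nearest coding TSS, negative being upstream, with quartiles of -79.8 and 30.8 bp. Of these, 494 (94.6%) lay within 250 bp of it and 511 (97.9%) held a coding TSS. Among the 6076 other listed peaks at coding promoters, 71.6% lay within 250 bp and 80.7% held a coding TSS. At Numb the midpoint lay 1 bp from the TSS, at Arrb2 at 39 bp and at Grk4 at -24 bp, whereas Usp1 and Fbrsl1 had theirs at -346 and -286 bp.

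**Figure D2:**
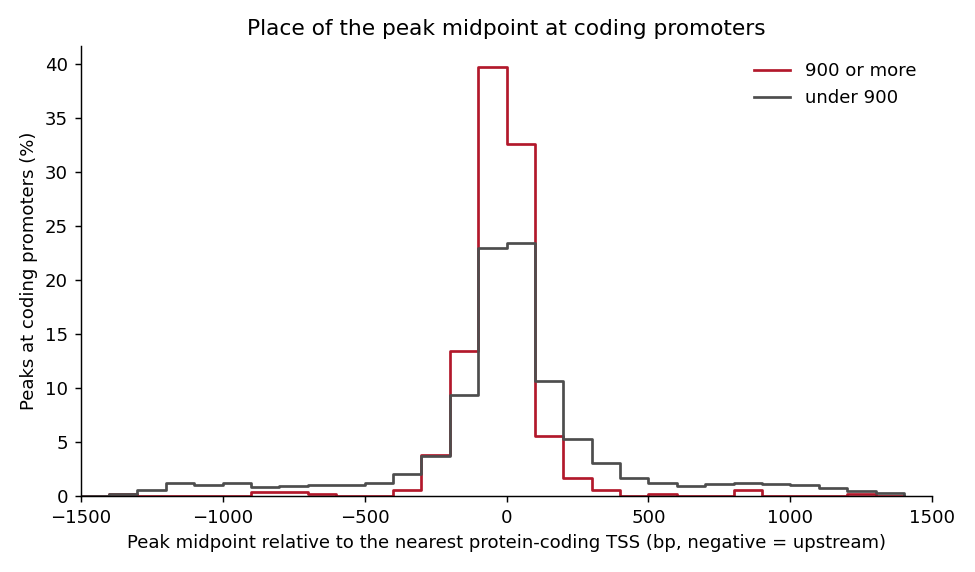
Distance of the peak midpoint from the nearest protein-coding TSS (bp, horizontal, in steps of 100, negative is upstream) against the share of peaks at coding promoters (%, vertical), for the 522 top-scored peaks in red and the 6076 others in grey. The red curve is narrower about the TSS, with 94.6% of its peaks within 250 bp against 71.6%.

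Promoters that serve genes on opposite strands were common. Such a pair lay at 81 of the 522 coding promoters (15.5%, 12.7 to 18.9), at 12.4% of the coding promoters with scores from 800 to under 900 and at 8.15% of all those under 900. The TSSs of the 81 pairs were a median of 93 bp apart (quartiles 31 and 162 bp), and in 71 pairs the genes pointed away from each other. In Arl16 and Hgs the TSSs lay 5 bp apart, in Dhx38 and Txnl4b 31 bp, in Erp44 and Invs 72 bp, in Grk4 and Nop14 102 bp and in Ormdl2 and Sarnp 135 bp. Prr11 and Ska2, both with roles in mitosis, were 547 bp apart. In Fkbp15 and Slc31a1 (8 bp) and in Rab5b and Pmel (380 bp) the annotated transcripts overlapped. Among CpG-rich peaks near a TSS, as defined with the motifs below, the share was 17.8% (14.4 to 21.8) in the top-scored peaks, 17.8% from 800 to under 900 and 14.2% (12.9 to 15.5) in all under 900, so the difference there was within overlapping intervals.

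Some top-scored peaks marked noncoding genes. A noncoding TSS lay beside the coding one at 74 of the 522. The 17 with noncoding genes alone were led by the lncRNAs Gm32142 (951), Mir22hg (950), the host of miR-22, 5430416N02Rik (935), Gm10505 and Dancr (934 each), Gm12915 and Crnde (926 each) and Gm43699 (922). The peak at Dancr, which keeps progenitor cells undifferentiated, also covered the promoter region of Snora26. At Gm32142 and Gm43699 the peak did not hold the TSS but lay 365 and 742 bp from it. Over all 539 promoter peaks, a lncRNA was present at 78, a tRNA gene at 7, and a miRNA or snoRNA at 4 each. Those tRNA genes lay beside Sacm1l, Prmt5, Ppp6r3, Lta4h and Ilf2, and at 2 peaks with no coding gene.

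Genes that all cells use carried top-scored peaks in small numbers, at rates of 2.99% to 11.8% per list beside the 2.78% of all protein-coding genes. The lists were made by symbol pattern. The interval lay above 2.78% for the proteasome, cell cycle, respiratory chain and translation lists, and for the C2H2 zinc finger transcription factors. These lists also had more genes with any listed peak. Among genes with any listed peak, 9.31% of all protein-coding genes had a top-scored one. The share was 22.2% in the proteasome, 18.4% in the cell cycle and 15.4% in the respiratory chain list. It was 14.6% in the translation and 10.9% in the C2H2 zinc finger list. Splicing, RNA polymerase and chaperone genes were at 13.5%, 9.80% and 9.52%. Cytosolic ribosomal, mitochondrial ribosomal and histone genes lay below all protein-coding genes, at 8.70%, 6.98% and 6.06%. No interval was computed for these shares, and the proteasome one rests on 27 genes. Proteasome genes had 6 of 51 (11.8%, 5.51 to 23.4), the core subunits Psma3, Psma4 and Psma5, the regulatory subunits Psmd4 and Psmd8, and Psme3ip1, which the pattern took in but which is no subunit. Cell cycle genes had 7 of 87 (8.05%, 3.95 to 15.7). These were Cdc25a, the phosphatase that activates cyclin-dependent kinases, Cdc27 of the anaphase-promoting complex, Cdk19 of the Mediator kinase module, Cdk5, Cdk20, the spliceosome gene Cdc5l and the centrosome gene Cdk5rap2. Several of the 7 do not drive the cell cycle.

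Energy and translation genes gave similar counts. Of 109 respiratory chain genes 8 had a top-scored peak (7.34%, 3.77 to 13.8), Ndufv1 at 941 leading Ndufaf8, Ndufb5, Atp5b, Cox7a2l, Ndufa2, Cox18 and Atp5g1. Translation factors and tRNA synthetases had 7 of 107 (6.54%, 3.20 to 12.9), among them Tars, Nars and Cars for aminoacylation, Eif5b for initiation, and Eif2ak3 and Eif4ebp2, which restrain initiation. Splicing genes had 5 of 79, Prpf38a, Prpf8, Snrpe, Sf3b4 and Snrpc. RNA polymerase and Mediator genes had 5 of 106, Polr3k, Polr1b, Med23, Med16 and Gtf2e1.

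Protein-making and protein-folding lists lay nearer to the background. Cytosolic ribosomal proteins had 4 of 86 (4.65%, 1.82 to 11.4), among them Rpl27 (942) and Rps21 (940), although 46 of the 86 had some listed peak. Mitochondrial ribosomal proteins had 3 of 78, Mrpl47, Mrps14 and Mrpl50. Chaperones had 4 of 84, Dnajb11, Hspa14, Dnajc4 and Dnajc16. Replication-dependent histone genes, which lie in clusters and are near-copies of each other, had 2 of 67, H1f2 (911) and H3c6 (904).

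Among transcription factors, C2H2 zinc finger genes had the most, 21 of 424 (4.95%, 3.26 to 7.45). Zfp78 (948), Zscan20 (941), Zfp142 (940) and Zfp143 (936) scored highest. Zfp143 encodes the mouse ZNF143, whose motif is described below, and its peak was 1174 bp wide. The ZBTB genes, the family of transcription factors that the study is about, had 2 of 41 (4.88%, 1.35 to 16.1). These were Zbtb5 (926, 1051 bp) and Zbtb8b (900, 575 bp). At Zbtb21 itself no peak was listed at a promoter. The list holds no peak with a score under 540, so absence from it does not show that a promoter was closed. Cohesin and loader genes had 0 of 11 (upper limit 25.9%), with Mau2, a subunit of the cohesin loader, just below at 897. Only 4 of the 11 had any listed peak. The ZBTB and cohesin intervals both included the 2.78% of all protein-coding genes. Of the olfactory receptor genes, which are mostly silent outside the nose, 0 of 1109 had a top-scored peak (upper limit 0.345%). Only 9 of the 1109 (0.812%) had any listed peak, so the 0 is not particular to the top-scored peaks. Hox genes had 0 of 39 and collagen genes 1 of 44, Col11a1 at 900, and both intervals included the 2.78% of all protein-coding genes.

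**Figure D3:**
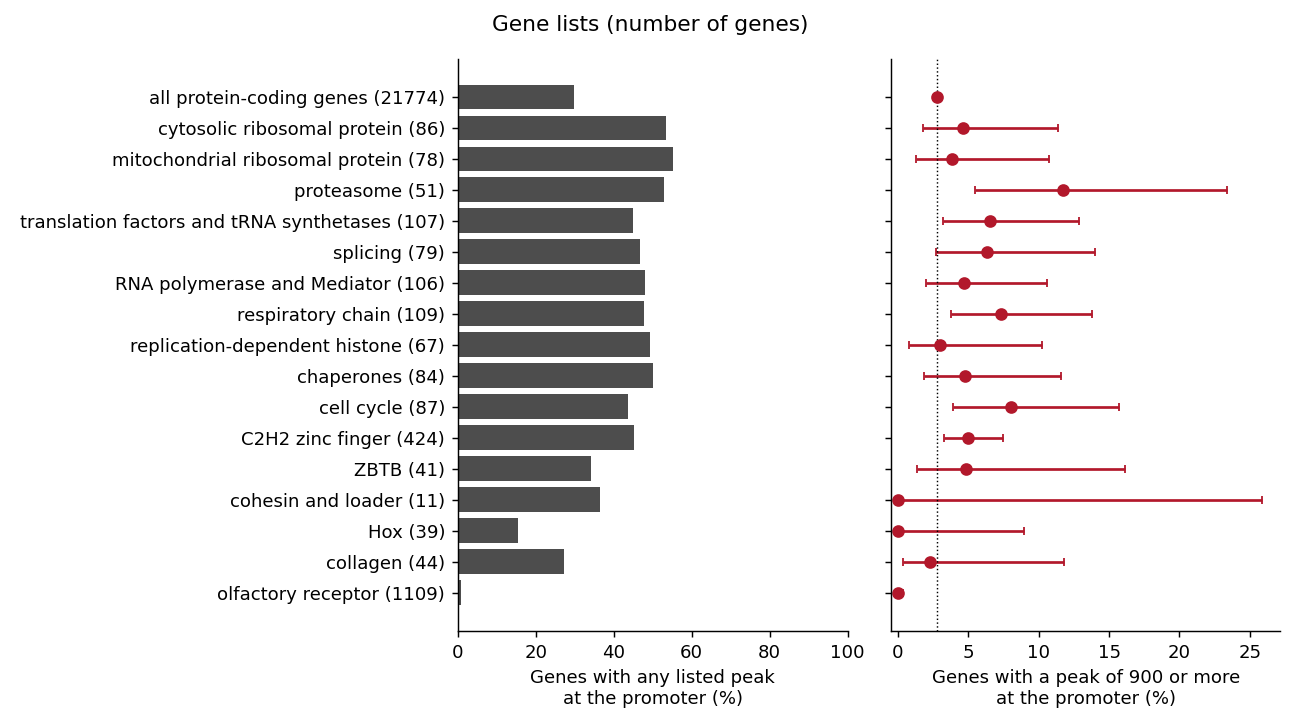
Share of genes in each list (number of genes in brackets) with any listed peak at a promoter (left, %) and with a top-scored peak (right, %, bars are Wilson 95% intervals, the dotted line marks the 2.78% of all protein-coding genes). The olfactory receptor, Hox and cohesin lists have no top-scored peak, and the proteasome list is highest at 11.8%. Of the olfactory receptor genes only 0.812% have any listed peak.

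The labelled cell type was checked against marker genes. The counts are read beside the 29.9% of all protein-coding genes with any listed peak and the 2.78% with a top-scored one. Of 16 markers of mESCs 6 had a listed peak at a promoter, Tbx3 at 909, Zfp42 at 892, Pou5f1 at 861, Sall4 at 820, Nanog at 805 and Dppa5a at 771, and only Tbx3 was among the top-scored. No peak was listed at the promoters of Sox2, Klf4 or Esrrb, which again does not show that they were closed. Of 10 fibroblast markers, for the feeder cells, 3 had a listed peak, Thy1 at 829, Pdgfra at 687 and Pdgfrb at 602, and 0 were among the top-scored. Endoderm markers had 0 of 4 with any peak, and trophoblast markers 1 of 4, Tfap2c at 651. The top-scored peaks thus held 1 of these 34 genes, and the shares of mESC and fibroblast markers with any peak, 37.5% and 30.0%, lay near that of all genes. The markers therefore do not tell the cell types apart at this level, and the part that feeder cells have in the list was not tested.

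In base composition the top-scored peaks were CpG-rich. Their median GC content was 60.1% (59.7 to 60.6, 95% order-statistic interval) against 52.1% in all listed peaks. The observed over expected CpG ratio, which is 1 where CpG is as common as its bases allow, had a median of 0.730 against 0.248. A ratio of 0.6 or more, a usual mark of CpG islands, was met by 441 of the 539 promoter peaks (81.8%), by 55.2% of promoter peaks with scores from 800 to under 900 and by 43.7% of all promoter peaks under 900. The share was 40.5%, 39.3% and 40.6% in the score classes that start at 540, 600 and 700, so that it too was higher from a score of 800.

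The widths of the top-scored peaks fell in a middle range. The median was 765 bp (751 to 778) against 547 bp in all listed peaks, with a range from 311 to 1333 bp. Although 574 of the 612 were wider than the median of the list, only 1 was among its 612 widest peaks, the widest of which measured 3891 bp. The 95th percentile of the list, 1052 bp, was exceeded by 38 of them (6.21%), and 0 were under the 5th percentile of 288 bp.

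Part of the difference in width followed the promoter share. At promoters the median was 773 bp in the top-scored peaks and 727, 690, 664 and 715 bp in the score classes that start at 540, 600, 700 and 800. Away from promoters it was 669 bp (634 to 716) in the top-scored peaks and 441, 477, 551 and 635 bp in the same 4 classes, the last within the interval of the top-scored. Across promoter peaks Spearman's rho of score and width was 0.05 (n = 8293 peaks of 1 list), and across the other peaks 0.31 (n = 32721), as a description. Among CpG-rich peaks with the midpoint within 250 bp of a coding TSS the median was 772 bp (760 to 789) in the top-scored peaks, 748.5 bp (737 to 764) from 800 to under 900 and 815 bp (801 to 827) in all under 900. Within that kind of promoter the top-scored peaks were thus narrower than all the others together and no narrower than the class next to them.

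**Figure D4:**
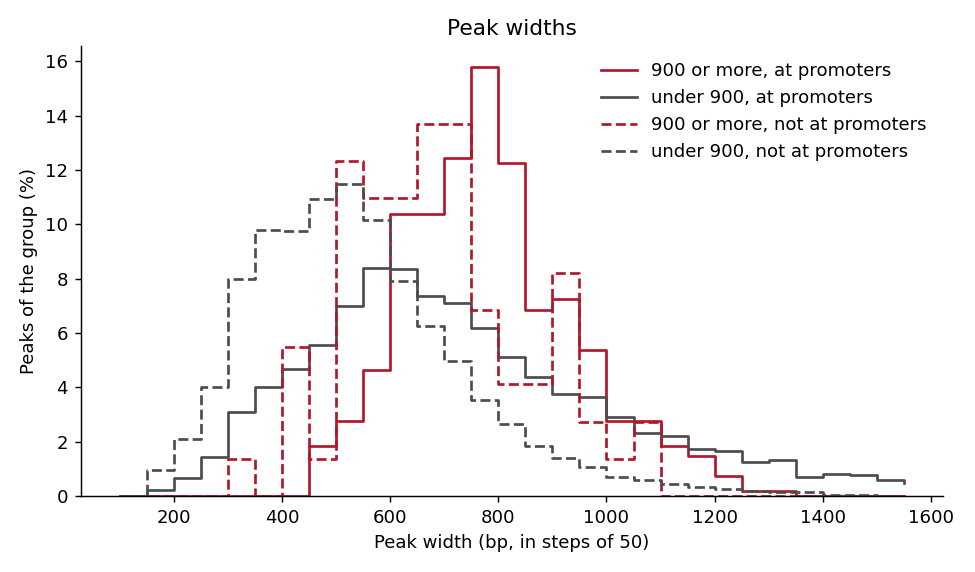
Distribution of peak width (bp, horizontal, in steps of 50, shown up to 1600) as the share of each group (%, vertical) for peaks scored 900 or more (red) and under 900 (grey), at promoters (solid) and elsewhere (dashed). The top-scored promoter peaks gather about their median of 773 bp, while the grey promoter curve spreads further to both sides.

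The widest of the 612 were all at promoters. They were Gsk3b (1333 bp), a kinase of the WNT pathway, Carm1 (1258 bp), an arginine methyltransferase, Nap1l4 (1246 bp), a histone chaperone, Flvcr1 (1232 bp) and the pair Glb1 and Tmppe (1214 bp). The narrowest 5 were all away from promoters, at chr17:85522765-85523075 (311 bp), chr17:74159425-74159827 (403 bp), chrX:135574357-135574760 (404 bp), chr5:125465644-125466050 (407 bp) and chr17:57118571-57118992 (422 bp).

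Short motifs were searched on both strands in the 300 bases about each midpoint. NF-Y, a trimeric factor that binds the CCAAT box, was the motif with the widest gap in percentage points (AGCCAATC). It was present in 68 of 539 top-scored promoter peaks (12.6%, 10.1 to 15.7) and in 3.88% (3.47 to 4.34) of the 7754 other promoter peaks, and in 2.37% of all listed peaks. The sequences show it in 6 high-scored coding promoters other than Sel1l (951), each in 60 bases without an annotated exon. They are read in the direction of the nearest gene with the motif in capitals. These stretches begin at -503, -209, -231, -161, -101 and -190 bp from the TSS, farther upstream than the median place of the motif given below.
Usp1, chr4:98923307-98923366, + strand: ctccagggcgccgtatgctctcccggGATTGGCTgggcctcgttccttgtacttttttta
Fnbp4, chr2:90745349-90745408, + strand: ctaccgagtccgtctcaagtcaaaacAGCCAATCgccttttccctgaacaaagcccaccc
Ska2, chr11:87109030-87109089, + strand: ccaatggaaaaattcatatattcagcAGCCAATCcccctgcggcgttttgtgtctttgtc
Osbpl2, chr2:180119145-180119204, + strand: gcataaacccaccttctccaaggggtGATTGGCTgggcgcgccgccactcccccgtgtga
Napa, chr7:16098351-16098410, + strand: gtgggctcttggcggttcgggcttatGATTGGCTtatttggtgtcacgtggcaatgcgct
Tent5b, chr4:133479943-133480002, + strand: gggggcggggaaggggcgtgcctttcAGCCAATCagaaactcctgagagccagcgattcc
In the stretch of Ska2 a further CCAAT stands at the very start, and the stretch before the TSS of Sel1l printed above holds the reverse complement of the motif more than once.

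By score class the share with the NF-Y motif was 2.64%, 2.76%, 3.54% and 6.51% in the classes that start at 540, 600, 700 and 800, and 12.6% in the top-scored. The motif lay at a median of -33 bp from the nearest coding TSS in the 65 top-scored coding promoters that held it, with 58 (89.2%) upstream. In the 256 others that held it the median was -47 bp, with 85.9% upstream. The search covered only a window about each midpoint, so a match could not lie far from the midpoint in either group. These medians therefore do not show whether the motif was placed alike in both. The frequencies differed, by less among peaks of like composition and place, as given below.

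ZNF143, a zinc finger factor that shares a sequence element with THAP11 (Ronin), had a rarer motif. It is 11 letters long and was in 17 of 539 top-scored promoter peaks (3.15%, 1.98 to 4.99), in 0.864% (0.681 to 1.10) of the other promoter peaks and in 0.249% of all listed peaks. The 4 stretches of 60 bases without an annotated exon are shown with the match in capitals.
Cep97, chr16:55934561-55934620, - strand: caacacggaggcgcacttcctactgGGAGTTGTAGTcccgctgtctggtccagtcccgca
Tmem115, chr9:107533833-107533892, + strand: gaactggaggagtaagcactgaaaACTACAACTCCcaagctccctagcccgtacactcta
Ap2s1, chr7:16738362-16738421, + strand: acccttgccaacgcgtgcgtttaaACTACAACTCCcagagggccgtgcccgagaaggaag
Espl1, chr15:102296173-102296232, + strand: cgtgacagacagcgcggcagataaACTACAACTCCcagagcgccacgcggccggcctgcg
Along the score the share went through the same 5 classes as 0.248%, 0.407%, 0.763%, 1.95% and 3.15%. Grk4 and Nop14, the pair with the highest score, also held this motif.

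Several other promoter motifs were also more frequent. YY1 (AAGATGGCG) was in 4.82% of the top-scored promoter peaks against 2.08% of the others, the cAMP response element (TGACGTCA) in 3.34% against 1.78%, ETS (CCGGAAGT) in 8.72% against 5.58% and SP/KLF (GGGGCGGGG) in 16.1% against 11.9%. In promoter peaks from 800 to under 900 the same shares were 3.26%, 2.77%, 9.60% and 13.2%, with intervals that overlapped those of the top-scored peaks. YY1 differed from NF-Y in place. It lay downstream of the TSS in 25 of the 26 top-scored coding promoters that held it, at a median of 23.5 bp. NRF1 (GCGCATGCG) at 2.23% against 1.55%, the E-box (CACGTG) at 9.28% against 7.65%, the ZBTB33 element (TCTCGCGAG) at 0.742% against 0.696% and the octamer (ATTTGCAT) at 1.86% against 1.78% had overlapping intervals. Fewer top-scored promoter peaks held the TATA box (TATAAA, 2.97% against 5.26%), AP-1 (TGANTCA, 4.27% against 7.16%), CTCF (0.928% against 2.06%) or ESRRB (TCAAGGTCA, 0.186% against 0.490%), of which the last 2 had overlapping intervals. From 800 to under 900 the TATA box and AP-1 were at 4.50% and 7.16%, with intervals that overlapped those of the top-scored peaks. RFX and REST were found in 0 of the top-scored promoter peaks.

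The motif shares were also taken among peaks of like composition and place, a choice made after the data were seen. These were peaks with a CpG ratio of 0.6 or more and the midpoint within 250 bp of a coding TSS, 416 of the top-scored and 2687 of the others. There the NF-Y motif was in 12.7% (9.87 to 16.3) against 5.84% (5.02 to 6.79), and the ZNF143 motif in 3.61% (2.20 to 5.86) against 1.60% (1.19 to 2.15). From 800 to under 900 the NF-Y share was 8.50% (6.86 to 10.5) and the ZNF143 share 3.05% (2.12 to 4.37). Both intervals overlapped those of the top-scored peaks. Other motifs lost their difference or turned. YY1 was at 6.01% against 4.73%, the cAMP response element at 3.61% against 3.28%, SP/KLF at 17.8% against 19.5%, the TATA box at 2.40% against 3.46% and AP-1 at 4.09% against 3.09%. ETS was at 9.13% (6.73 to 12.3) against 12.2%, with overlapping intervals, and at 16.0% (13.8 to 18.5) from 800 to under 900, where the interval lay above that of the top-scored peaks. Over all promoter peaks too the ETS share from 800 to under 900, 9.60%, was no lower than in the top-scored.

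**Figure D5:**
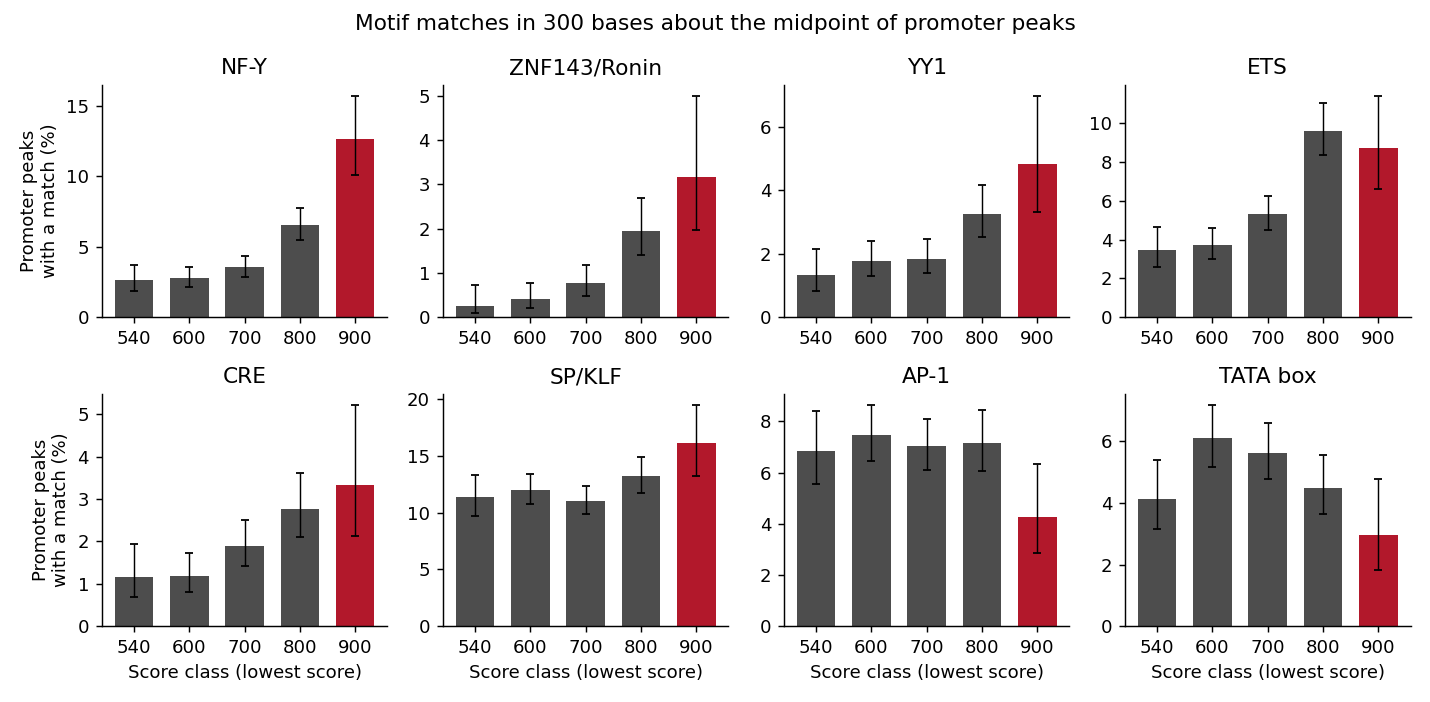
Share of promoter peaks with a motif match in the 300 bases about the midpoint (%, vertical, own scale in each panel, with Wilson 95% intervals) in 5 score classes, each named by its lowest score, with the top-scored class in red. NF-Y goes from 2.64% to 12.6% and ZNF143 from 0.248% to 3.15%, while AP-1 and the TATA box are lowest in the top-scored class. The ZNF143, AP-1 and TATA box intervals of that class overlap those of the class from 800.

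The 73 top-scored peaks away from promoters were poorer in CpG than those at promoters. By RefSeq, 20 overlapped an exon, 24 lay in introns and 29 between genes. The nearest TSS was a median of 12136 bp away, with 8 at 1 to 2.5 kb, 24 at 2.5 to 10 kb, 30 at 10 to 50 kb, 7 at 50 to 100 kb, 3 beyond 100 kb and 1 on a sequence without annotation here. GENCODE vM21, a second annotation chosen after the data were seen, had a TSS within 1 kb of 15 of the 73. Their median GC content was 55.6% against 51.4% in the other peaks away from promoters, and their CpG ratio 0.306 against 0.220. A CpG ratio of 0.6 or more was met by 7 of them (9.72% of those with sequence), against 1.64% of the other peaks away from promoters. The counts by gene part, distance and GENCODE are given without such a comparison.

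Individual regions of this kind reached the highest scores of the list. The region chr13:84347934-84348614 stood at 953, level with Grk4 and Fbrsl1, and overlapped an exon of the lncRNA Gm41011, 4041 bp from its TSS. It held matches to both the NF-Y motif and the octamer. In an intron of Zfhx3, a homeobox gene, chr8:108722504-108723452 stood at 948. At Fbxo46 the exonic peak chr7:19131291-19131829 stood at 946, 1665 bp from the TSS, with a CpG ratio of 0.739. Gnai2, a G protein subunit, held an intronic peak at chr9:107626657-107627411 (942, CpG ratio 0.0839), and another region at 942 lay on the unplaced sequence JH584304. These regions ranged from CpG-poor to island-like.

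The next ones lay near Tsks (940), Klf3 (939), Zfp532 (938), Pds5a and Rpn1 (936 each), Gm39783 (933), Rnf19b (932), Arl5c (931), Gm31569 (930) and Gm34554 (929), as named by their nearest coding gene or lncRNA. The region by Pds5a, a regulator of cohesin, lay 26086 bp from its TSS. The farthest was 194241 bp from a TSS, that of A330102I10Rik, with a score of 904, and an intronic region in Pbx3 (908) lay 121435 bp away.

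The SP/KLF, NF-Y and ZNF143 motifs were more frequent in these regions than in other peaks away from promoters. These regions were also richer in GC and CpG, and some lay near a GENCODE TSS, as given above. The shares were not compared among peaks of like composition or of the score class next below. Whether the differences go beyond composition was thus not tested. Of the 72 with sequence, 13 held the SP/KLF motif (18.1%, 10.9 to 28.5) against 3.55%, 5 held the NF-Y motif (6.94%, 3.00 to 15.2) against 1.83% and 2 held the ZNF143 motif (2.78%, 0.765 to 9.57) against 0.0490%. CTCF, the insulator protein, had a match in 1 of 72 (1.39%, 0.246 to 7.46) against 5.49%, an interval that includes the other share. AP-1 was even, in 12.5% against 12.4%. ETS, YY1, NRF1, the cAMP response element and ESRRB had 0 of 72, which allows a share of up to 4.17% if 3 counts are taken as the limit and 5.07% by the Wilson interval. The 1 region with a CTCF match lay 19321 bp from the TSS of Tef.

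The top-scored peaks were scattered over the genome. Autosomes held 598, X 13 and Y 0. As a share of the listed peaks of each autosome they ran from 0.821% on chromosome 13 to 2.20% on chromosome 7. On X the 9 at promoters marked Haus7, Dkc1, the pair Fancb and Mospd2, Rp2, Tspyl2, Txlng, Mmgt1, Atp6ap2 and Emd. Only 6 had another top-scored peak within 10 kb, and the median distance to the next was 621650 bp. To the next listed peak of any score the median was 12139.5 bp, with 264 within 10 kb, 18 within 500 bp and 18 with none within 100 kb.

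The study divided chromatin loops into those more and less responsive to ZBTB21 loss, by a rule that used ZBTB21 peaks and cohesin peaks that went down, and that added up signals over the ATAC-seq peaks a loop held. The number of ATAC-seq peaks in each class is therefore not independent of the rule. Of the top-scored peaks 105 (17.2%, 14.4 to 20.3) overlapped the span of a ZBTB21-responsive loop, beside 7937 of all listed peaks (19.4%), a share within the interval. In the less responsive loops lay 3 of the 612 (0.490%, 0.167 to 1.43), an interval below the 2.71% of all listed peaks. At promoters the shares were 0.557% (0.189 to 1.62) in the top-scored and 2.02% in the other peaks. Spans of the 500 loops covered 283 Mb in the responsive and 316 Mb in the less responsive class. By anchors alone, 10 top-scored peaks (1.63%) lay in a responsive loop and 0 in a less responsive loop. Of all listed peaks 854 (2.08%) and 121 (0.295%) did, so both anchor counts were near the shares of all listed peaks.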

How the data were processed

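ATAC-seq of untreated V6.5 mESCs was analysed from 1 peak list. The authors deposited for each peak its coordinates and a score, pooled over 2 replicates, with no strand and no counts, so depth and precision per library are unknown. The submitters' processing notes name cutadapt 2.6, Bowtie2 2.3.5.1 and MACS2 2.1.1 and the build mm10, which is GRCm38. How the ATAC-seq peaks were called, the shift for Tn5 and the joining of replicates are not given in the sources used here. No listed peaks overlap (0).

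From the list, peaks with a score of 900 or more were taken. Promoters were regions within 1 kb of 79130 distinct TSSs of 119657 RefSeq transcripts (GRCm38.p6), at an overlap of at least 1 bp. GC content and the CpG ratio were computed over the whole peak, and motifs were searched in the 300 bases about the midpoint. Of 16 motifs, those longer than 9 letters are given by name only, and no matches of 2 motifs overlapped in the 611 windows (0). Histone genes were found by their older symbols. The 500 loops of each class came from the study's supplement, and its shortened table of ZBTB21 peaks was not used here.

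Shares have Wilson 95% intervals and medians 95% order-statistic intervals, both for counting error only. No test across samples was possible from 1 pooled list, and none was run. The members, lists and motifs were chosen with earlier results of these data known. Genes were named by rule: the 25 highest-scored coding promoters, all of each gene list with at most 10 (otherwise the top 4), the 15 highest regions away from promoters, the 5 widest, 5 narrowest and 5 on each side of the threshold, the 8 highest opposite-strand pairs and the 8 highest noncoding promoters. Some genes that the rule names are not reported here, and no sequence from chromosome 18 was printed. Regions on X, tRNA genes and regions named for a motif or for their distance were chosen after their values were seen. Functions were tested on simulated data. The scripts ran under Python 3.11.15 with scipy 1.17.1, matplotlib 3.10.9, numpy 2.4.6 and pandas 2.3.3.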

Additional observations from a re-analysis of the deposited data

How the results depend on the processing

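The 7 main results, 5 motif shares and the width of promoter peaks were recomputed under other thresholds, promoter definitions, windows and overlap rules, and a few alternatives were chosen after seeing the data (GENCODE vM21 transcripts, and CpG-rich peaks near a coding TSS). Of 48 alternatives over these 13 results 36 stayed within 1.5 times the count or within the interval of the reported value. Some of these could hardly move. Merging top-scored peaks within 500 bp of each other joined none and left every value as it was. Autosomes alone kept 598 of the 612 peaks. The alternatives with CpG-rich peaks recomputed the value of the top-scored peaks alone, not its contrast with other peaks. With a score of 850 or more there were 2098 peaks, 65.3% at promoters, a median width of 722 bp, a median GC content of 57.3% and 1463 genes. With the stricter of the other thresholds there were 231 peaks, 90.9% at promoters, a median GC content of 61.2%, a CTCF motif in 0% of the 20 away from promoters with sequence, and 238 genes. The median GC content in 300 bases about the midpoint was 60.7%, and 1.63% of the peaks overlapped an anchor of a responsive loop in place of its span. The counts of peaks and genes and the overlap with anchors follow from the other threshold or region by construction. The promoter share and the GC content depended on the threshold that was chosen, and so did the width at the lower one. The promoter share ran from 85.9% to 89.4% over the other promoter definitions, GENCODE included.

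No paired analysis was possible because the list holds no values per replicate. Leaving out a replicate was not run for the same reason. The depth of the libraries is unknown.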
